A study of Mus musculus with 6 samples.

Results

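Expression of 8 genes was described in subcutaneous CT26 tumours of mice given irinotecan and of mice given solvent. The genes are Foxp3, Il2ra, Ikzf2, Ccr8, Tnfrsf18, Tnfrsf4, Tnfrsf9 and Icos, markers and costimulatory receptors of regulatory T cells, chosen by gene symbol, and all 8 were found among the 25251 genes of the deposited table. CT26 is a mouse colon carcinoma line that grows in immunocompetent BALB/c mice, and irinotecan (CPT-11) is converted in the body to an inhibitor of topoisomerase I. The irinotecan group held 3 tumour samples from mice injected intraperitoneally at 25 mg/kg every 4 days. The control group held 3 samples of solvent-treated tumours. The series text speaks of duplicates, but 3 samples a group are labelled and all were used. The genotype was labelled WT in both groups, and in both the mice were randomized at a tumour volume of 100 mm3. The sources used here give neither the age of the mice nor the interval from last dose to collection. Nothing in the labels ties each sample to its own mouse, so the spread behind each p-value is that between samples and may be technical. Whole tumours were taken, so cancer, stromal and immune cells are mixed. In the comparisons below, the irinotecan and control tumours are the labelled samples.

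Regulatory T cells are CD4 T cells that restrain other immune cells and are often frequent in tumours. Their identity depends on the transcription factor Foxp3, and they hold the high-affinity interleukin-2 receptor, which lets them take up a cytokine that other T cells need. They also carry costimulatory receptors of the TNF receptor superfamily and of the CD28 family, which activated conventional T cells and some other immune cells share. None of the 8 genes is therefore a measure of regulatory T cells alone. In bulk tumour RNA, fewer cells of a type and less RNA per cell cannot be told apart.

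The 6 libraries held 13940650 to 15656894 reads assigned to genes. Values are normalized counts, that is, reads per gene divided by 1 factor per library. Irinotecan replicate 1 stood apart from the rest: across genes, correlations of log2 values with the other libraries were 0.932 to 0.941, whereas the 10 pairs without it gave 0.9748 to 0.985. Its GC-rich genes (above 60%) lay at a median of -0.76 (log2) from the control mean, against -0.068 and -0.033 in irinotecan replicates 2 and 3. It also had reads for 19040 genes, against 20571 to 21426 in the others, and 544 genes with a single read, against 1391 to 1692. Fold changes of the 8 genes and medians of the gene lists are given with and without it. Without it the median log2 fold change of all 14639 genes tested was -0.0023. The leukocyte gene Ptprc had 1023 to 1453 normalized counts over the 6 libraries, and T cell receptor genes were detected in each of them. For the labelled colon cancer cells, the epithelial keratin gene Krt20 had 1608 to 2098 normalized counts. The keratin genes Krt8 and Krt18 were lower, at 37.0 to 149 and 46.2 to 142. The epithelial adhesion gene Epcam was at 0 in 5 of the 6 libraries, and the mesenchymal gene Vim had 75451 to 93206 normalized counts.

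Promoter sequence from RefSeq (GRCm38.p6, 250 bases before to 50 bases after an annotated start) was matched by symbol for 6 of the 8 genes. The 5 sequences that follow are both windows of the lineage factor and 1 window each of the most abundant of the 8 genes and of 2 neighbouring receptor genes that took opposite positions in irinotecan replicate 1. Each is on the plus strand and is printed 5′ to 3′, and capitals mark the matches to the motifs searched on both strands.
Foxp3, upstream of 2 starts, chrX:7579426-7579725: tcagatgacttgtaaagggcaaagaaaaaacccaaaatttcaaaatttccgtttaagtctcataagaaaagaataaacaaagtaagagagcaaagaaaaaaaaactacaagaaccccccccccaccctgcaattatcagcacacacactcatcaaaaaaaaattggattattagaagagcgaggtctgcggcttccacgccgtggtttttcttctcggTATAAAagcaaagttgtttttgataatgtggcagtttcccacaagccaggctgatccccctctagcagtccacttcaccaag
Foxp3, downstream of 2 starts, chrX:7580233-7580532: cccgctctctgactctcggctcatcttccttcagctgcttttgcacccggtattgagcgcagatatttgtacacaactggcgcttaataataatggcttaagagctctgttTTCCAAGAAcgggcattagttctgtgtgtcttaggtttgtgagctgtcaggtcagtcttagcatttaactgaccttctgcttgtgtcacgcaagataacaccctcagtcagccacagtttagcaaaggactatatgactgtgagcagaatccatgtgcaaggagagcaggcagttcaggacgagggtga
Tnfrsf9, downstream of 2 starts, chr4:150927749-150928048: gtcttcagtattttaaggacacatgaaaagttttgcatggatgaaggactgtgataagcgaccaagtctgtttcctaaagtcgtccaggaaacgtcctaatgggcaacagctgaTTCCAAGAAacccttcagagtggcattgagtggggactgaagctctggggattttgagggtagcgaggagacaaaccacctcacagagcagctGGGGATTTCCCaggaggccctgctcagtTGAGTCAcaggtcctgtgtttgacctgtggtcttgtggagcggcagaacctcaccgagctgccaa
Tnfrsf4, chr4:156013445-156013744: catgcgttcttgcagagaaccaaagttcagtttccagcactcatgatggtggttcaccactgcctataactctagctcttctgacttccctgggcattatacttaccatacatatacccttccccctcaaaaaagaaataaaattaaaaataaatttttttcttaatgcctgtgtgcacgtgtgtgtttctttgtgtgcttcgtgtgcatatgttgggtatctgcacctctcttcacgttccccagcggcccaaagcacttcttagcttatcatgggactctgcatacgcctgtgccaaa
Tnfrsf18, chr4:156026072-156026371: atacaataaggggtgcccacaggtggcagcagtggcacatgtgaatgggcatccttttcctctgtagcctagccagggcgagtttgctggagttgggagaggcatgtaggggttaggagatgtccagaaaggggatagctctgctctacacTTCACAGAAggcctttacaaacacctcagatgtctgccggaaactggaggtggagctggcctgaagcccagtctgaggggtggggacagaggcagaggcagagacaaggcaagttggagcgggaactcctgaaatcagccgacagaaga
The motifs were the STAT motif TTCNNNGAA, the AP-1 motif TGANTCA, the NF-kB consensus and the TATA box TATAAA, which occurred in 8.30%, 7.81%, 8.46% and 13.6% of the 32851 promoters in the table. The upstream Foxp3 window held the letters of the TATA box from position 219, and the downstream window held a STAT motif from position 112. The Tnfrsf9 window shown held a STAT motif from position 115, an AP-1 motif from position 236 and 2 overlapping NF-kB matches from positions 208 and 209. A STAT motif began at position 152 of the Tnfrsf18 window, and the Tnfrsf4 window held none of the 4 motifs. The upstream Tnfrsf9 window, chr4:150919905-150920204, also held none and is not printed. The RefSeq start used for Tnfrsf4 lies upstream of the start in the deposited table. Both Tnfrsf9 windows lie downstream of the deposited start of that gene, 150914562. The RefSeq start of Tnfrsf18 and the downstream start of Foxp3 also lie downstream of the deposited starts. These matches describe the letters only.

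The 8 genes covered a wide range of levels. Scaled by length, as RPKM (reads scaled by the deposited gene length and by the reads of the library), Tnfrsf9 averaged 18.8 ± 5.92 (SD over all 6 libraries) and ranged from 12.1 to 27.2. The next was Tnfrsf4 at 1.83 ± 0.632 RPKM, followed by Icos at 0.843 ± 0.198 RPKM. Tnfrsf9, Tnfrsf4 and Icos did not overlap one another in RPKM over the 6 libraries. Tnfrsf18 followed at 0.590 ± 0.313 RPKM, then Il2ra at 0.291 ± 0.0771, Foxp3 at 0.245 ± 0.103, Ikzf2 at 0.163 ± 0.0812 and Ccr8 at 0.114 ± 0.0718 RPKM. From Icos down, each gene overlapped its neighbour in this order. For comparison, 14 core T cell genes, such as the CD3 chains and T cell receptor constant genes, averaged 0.153 RPKM (Cd247) to 5.16 RPKM (Trbc1), with a median of 0.753. Tnfrsf9 thus had a higher mean RPKM than all 14, whereas Foxp3, Il2ra and Ikzf2 were each above 1 of them and Ccr8 above 0. Tnfrsf9 gave 73.4% to 87.7% of the reads of the 8 genes in each library, and the other 7 together had 126 to 201 reads per library.

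By limma, 0 of the 7 genes that passed the filter of a mean of 10 normalized counts were called at a Benjamini-Hochberg adjusted p under 0.05, as were 0 of the 14639 genes tested (0%). At an unadjusted p under 0.05 the counts were 0 of 7 against 844 of 14639 genes (5.77%). DESeq2 called 52 genes in all and 0 of the 5 genes for which it gave an adjusted p (none for Foxp3 and Tnfrsf18), and edgeR 0 of the 7 and 0 in all. Adjusted p-values of the 7 genes by limma were 0.764 to 0.948. Their log2 fold changes, irinotecan over control, on the log2(normalized count + 1) scale, were positive for 5 of 7, against 48.2% of all genes tested, with a median of 0.21 against -0.014 over all genes. Without irinotecan replicate 1, 6 of 7 were positive, with a median of 0.26. The 95% intervals given for each gene below were wide, and differences within their bounds could not be resolved with these samples.

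**Figure D1:**
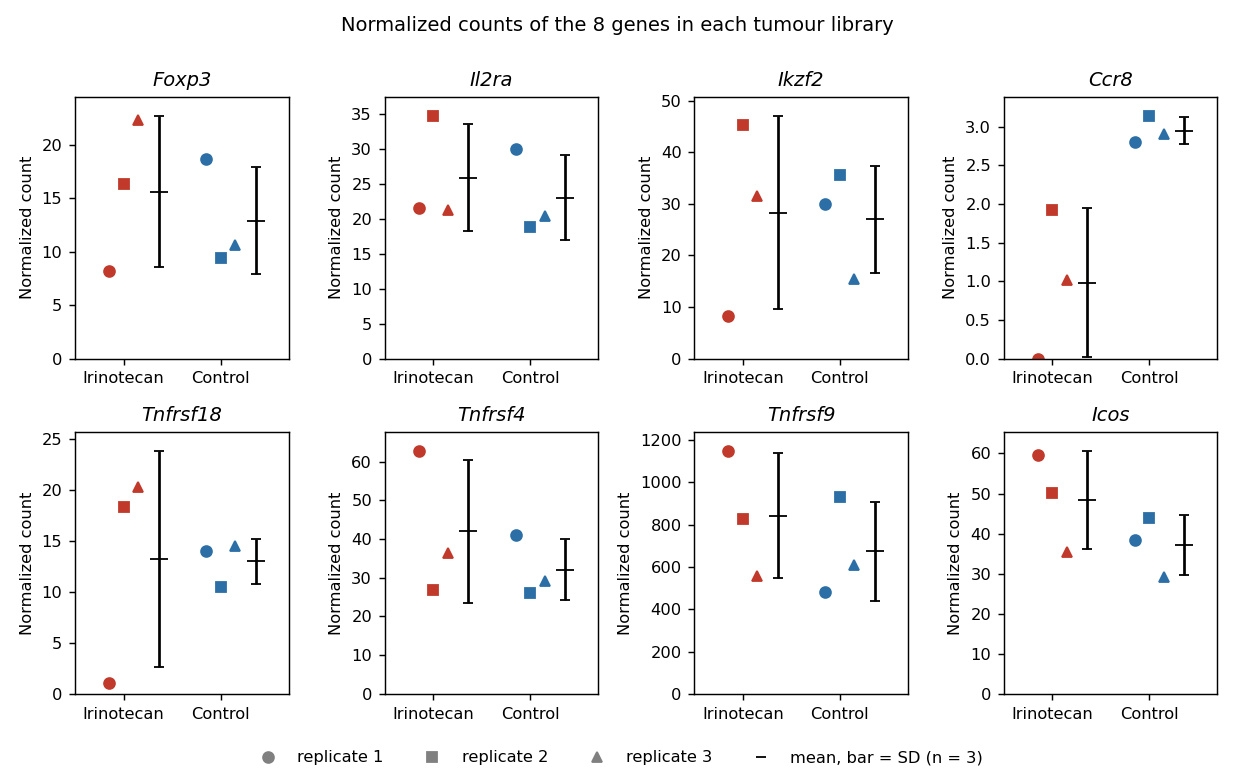
Normalized counts (y axis, from 0) of each of the 8 genes in the 3 irinotecan libraries (red) and the 3 control libraries (blue), with the group mean and SD (n = 3 each). The groups overlap in every panel except that of Ccr8, where no library had more than 3 reads, and irinotecan replicate 1 (red circle) is the lowest of 6 for Foxp3, Ikzf2, Ccr8 and Tnfrsf18 and the highest of 6 for Tnfrsf4, Tnfrsf9 and Icos.

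The lineage transcription factors came first. Foxp3 (chromosome X, 7579676 to 7595243, GRCm38), which specifies regulatory T cells, had 8.21, 16.4 and 22.3 normalized counts in irinotecan replicates 1 to 3 and 18.7, 9.41 and 10.7 in control replicates 1 to 3. Both groups thus held high and low tumours and overlapped. The means were 15.6 ± 7.07 with irinotecan and 12.9 ± 5.04 in controls (SD, n = 3 each), and the log2 fold change was 0.21 (SE 0.537, 95% interval -1.01 to 1.44). These values rest on 8, 17 and 22 reads with irinotecan and 20, 9 and 11 reads in controls. The exact Poisson 95% interval of a single library, which covers counting error only, was 3.45 to 15.8 for the 8 reads and 12.2 to 30.9 for the 20 reads. The log2 fold change of Foxp3 was 0.59 without irinotecan replicate 1, -0.079 without irinotecan replicate 3, 0.49 without control replicate 1 and 0.034 without control replicate 2. In GENCODE M21 its exons overlap those of Ccdc22 and Gm36995 on the opposite strand and Flicr on the same strand. Over the libraries, Flicr had 0 to 13.6 and Gm36995 had 4.82 to 13.2 normalized counts. The protein-coding gene Ccdc22 was not found by symbol in the deposited data, so its level is not known here. The M21 gene starts at 7573644, upstream of the start given above, so an overlap may lie outside the bases counted. The sources used here do not state whether counting used strand, so reads in the overlaps cannot be told apart.

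Ikzf2 (chromosome 1, 69531214 to 69687245), which encodes the Ikaros-family factor Helios, had 8.21, 45.3 and 31.4 normalized counts with irinotecan and 29.9, 35.5 and 15.5 in controls. The highest and the lowest of the 6 tumours were both irinotecan tumours. The means were 28.3 ± 18.7 and 27.0 ± 10.3 (SD, n = 3 each), while the log2 fold change was -0.14 (SE 0.638, 95% interval -1.60 to 1.32), so the means and the log scale differed in sign. The log2 fold change of Ikzf2 was 0.55 without irinotecan replicate 1, -0.62 without irinotecan replicate 2 and 0.088 without control replicate 2. Helios is 1 of 5 Ikaros-family factors. Of the 5 genes 1 was positive, Ikzf5 at 0.70 (SE 0.475), and the others ranged from Ikzf1, at -0.29 (SE 0.282), to Ikzf4, which encodes Eos, at -0.016 (SE 0.597). Without irinotecan replicate 1, 3 of the 5 were positive and Ikzf1 was at 0.054. None of the 5 passed the limma threshold. The exons of Ikzf2 overlap those of Gm29114 on the opposite strand, which was not found by symbol in the deposited data.

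Among the receptors for cytokines and chemokines, Il2ra (chromosome 2, 11642807 to 11693193), the alpha chain that gives the interleukin-2 receptor high affinity, had 21.6, 34.7 and 21.3 normalized counts with irinotecan and 29.9, 18.8 and 20.3 in controls. Each group had 1 high tumour and a pair of lower ones, and the groups overlapped. The means were 25.8 ± 7.65 and 23.0 ± 6.02 (SD, n = 3 each), with a log2 fold change of 0.15 (SE 0.393, 95% interval -0.75 to 1.05), which was 0.26 without irinotecan replicate 1 and -0.071 without irinotecan replicate 2. Scaled by length, the alpha chain was the least abundant of the 3 receptor chains, at 0.291 RPKM over all 6 libraries, against 5.53 RPKM for the beta chain gene Il2rb and 11.3 RPKM for the common gamma chain gene Il2rg. Natural killer cells and other lymphocytes also express these chains.

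Ccr8 (chromosome 9, 120092114 to 120094906), a chemokine receptor that marks regulatory T cells in tumours, was close to the limit of detection. It had 0, 1.93 and 1.01 normalized counts with irinotecan and 2.80, 3.14 and 2.90 in controls, from 0, 2 and 1 reads and 3, 3 and 3 reads. All 3 irinotecan tumours lay below all 3 controls, as did 7.89% of the genes that passed the filter, which Ccr8 did not. The ratio of its scaled reads, irinotecan over control, was 0.340, with an exact 95% counting interval of 0.0592 to 1.36, from 3 and 9 reads in all. With no filter on low values, limma gave a log2 fold change of -1.13 (SE 0.668, adjusted p = 0.797), and the authors' deposited table lists -1.58 with an unadjusted p of 0.372. A difference was not detectable at this depth.

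**Figure D2:**
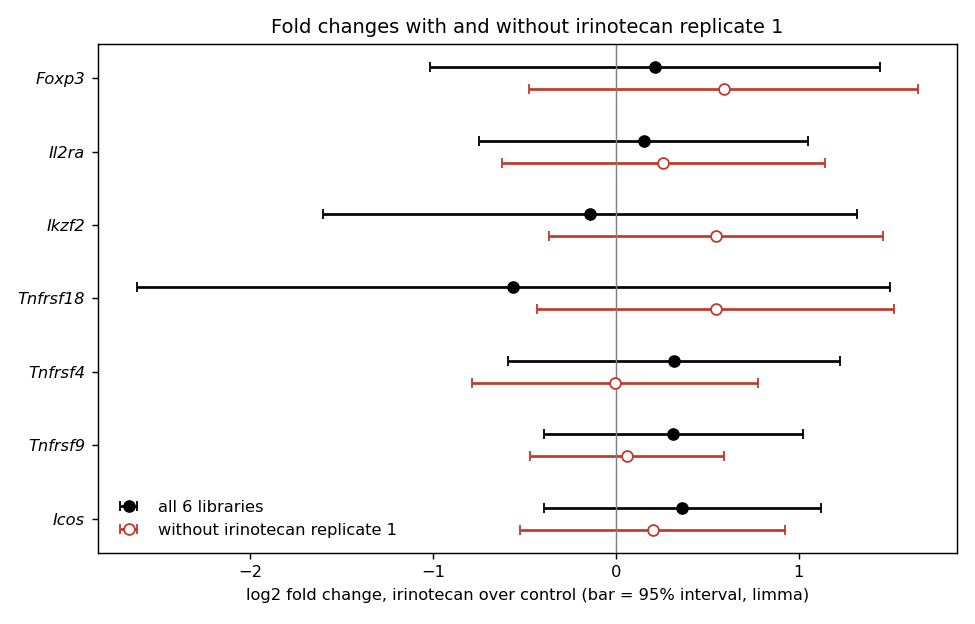
Log2 fold changes, irinotecan over control, of the 7 genes that passed the filter (x axis, log2 scale), with 95% limma intervals, from all 6 libraries (filled) and without irinotecan replicate 1 (open). All intervals include 0, and Ikzf2 and Tnfrsf18 move to the positive side and Tnfrsf4 to -0.0058 without that library.

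The TNF receptor superfamily genes followed. These receptors bind trimeric ligands, signal through TRAF adaptors to NF-kB and support the survival and division of activated T cells. Tnfrsf18 (chromosome 4, 156026164 to 156028895) encodes GITR, which regulatory T cells carry at high density. It had 1.03, 18.3 and 20.3 normalized counts with irinotecan and 14.02, 10.5 and 14.5 in controls. Irinotecan replicate 1 held a single read of this gene (exact Poisson 95% interval 0.0253 to 5.57), while irinotecan replicates 2 and 3 lay above all 3 controls, as they did for 12.8% of all genes tested. The means were 13.2 ± 10.6 and 13.0 ± 2.22 (SD, n = 3 each), and the log2 fold change was -0.56 (SE 0.900, 95% interval -2.62 to 1.5), or 0.55 (SE 0.445) without irinotecan replicate 1. Without irinotecan replicate 2 it was -1.08 and without irinotecan replicate 3 it was -1.15. An antisense gene, Gm16008, shares exonic bases with Tnfrsf18 and had 0 to 8.11 normalized counts.

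Tnfrsf4 (chromosome 4, 156013843 to 156016612) encodes OX40, which is induced on T cells by antigen, and ends 9551 bases before Tnfrsf18 on the same strand. In GENCODE M21, 2 other genes lie between them. Tnfrsf4 had 62.6, 27.0 and 36.5 normalized counts with irinotecan and 41.1, 26.1 and 29.0 in controls. Irinotecan replicate 1, the lowest of 6 for Tnfrsf18, was thus the highest of 6 for its neighbour. The means were 42.0 ± 18.5 and 32.1 ± 7.95 (SD, n = 3 each), and the log2 fold change was 0.32 (SE 0.397, 95% interval -0.59 to 1.23). It was -0.0058 without irinotecan replicate 1 and 0.59 without irinotecan replicate 2. The transcripts of the neighbours had a similar GC content, a median of 54.9% for Tnfrsf4 and 55.5% for Tnfrsf18.

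Tnfrsf9 (chromosome 4, 150914562 to 150946102) encodes 4-1BB, found on activated T cells and natural killer cells and also reported on dendritic and endothelial cells. It had 1146, 824 and 555 normalized counts with irinotecan and 481, 933 and 608 in controls. The groups overlapped, and the range within each group exceeded the difference between the group means. The means were 842 ± 296 and 674 ± 233 (SD, n = 3 each), with a log2 fold change of 0.31 (SE 0.310, 95% interval -0.40 to 1.02), or 0.061 without irinotecan replicate 1. With 548 to 1116 reads per library with irinotecan and 515 to 892 in controls, counting error was small beside the spread between samples.

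Icos (chromosome 1, 60977927 to 61000320), a CD28-family receptor induced on activated T cells and frequent on regulatory T cells in tumours, had 59.6, 50.1 and 35.5 normalized counts with irinotecan and 38.3, 43.9 and 29.0 in controls. The 2 highest tumours were irinotecan tumours and the lowest was a control, with overlap between them. The means were 48.4 ± 12.1 and 37.1 ± 7.51 (SD, n = 3 each), and the log2 fold change was 0.36 (SE 0.330, 95% interval -0.39 to 1.12), or 0.20 without irinotecan replicate 1.

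Irinotecan replicate 1 was therefore an extreme for most of these genes, in both directions. Among the 7 tested genes it was the lowest of 6 for 3 and the highest of 6 for 3, against 36.8% and 34.2% of all genes tested, so this share is close to that of genes at large. GC content, 1 of the properties by which this library differs, was 57.0% for Foxp3, 48.8% for Ikzf2 and 55.5% for Tnfrsf18, which were lowest there, and 54.9% for Tnfrsf4, 50.7% for Tnfrsf9 and 42.4% for Icos, which were highest. After removal of the trend with GC content and length, the log2 fold changes were 0.37 for Foxp3, -0.24 for Ikzf2, -0.36 for Tnfrsf18, 0.51 for Tnfrsf4, 0.40 for Tnfrsf9, 0.34 for Icos and 0.08 for Il2ra.

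To set each gene against the T cells of the same tumour, its log2 value was taken relative to the mean log2 value of the 14 core T cell genes. That mean was 4.01, 5.36 and 4.88 with irinotecan and 5.03, 4.97 and 4.36 in controls, with irinotecan replicate 1 lowest. The summed normalized counts of these genes were instead lowest in control replicate 3, at 323, against 350 in irinotecan replicate 1. Foxp3 lay at -0.81, -1.24 and -0.34 relative to the core with irinotecan and at -0.73, -1.59 and -0.81 in controls, a difference of 0.25 (exact permutation test over the libraries, two-sided, p = 0.6). This difference was -0.020 without control replicate 2 and -0.074 with Cd3e as the only denominator. For Icos the values relative to the core were 1.91, 0.32 and 0.31 with irinotecan and 0.26, 0.52 and 0.55 in controls, so irinotecan replicate 1 alone lay above the controls and the difference of 0.40 became -0.13 without it. Tnfrsf4 and Tnfrsf9 had the same pattern, with differences of 0.36 and 0.35 that became -0.34 and -0.27 without that library. Tnfrsf18 differed by -0.52 and Ikzf2 by -0.11 relative to the core, and both became 0.21 without irinotecan replicate 1; Ikzf2 also became 0.034 without control replicate 2. Il2ra differed by 0.19, which became -0.074 without irinotecan replicate 1 and -0.026 without control replicate 2. With Cd3e as the only denominator, the differences were 0.074 for Icos, 0.031 for Tnfrsf4 and 0.025 for Tnfrsf9. They were -0.85 for Tnfrsf18, -0.43 for Ikzf2 and -0.14 for Il2ra. Ccr8 differed by -1.09 with all irinotecan tumours below the controls, from the few reads given above; the difference was -1.43 with a pseudocount of 0.5 and -0.29 with a pseudocount of 10.

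The ratio of regulatory to CD8 T cells is often read from tumours, and here Foxp3 was set against Cd8a, a chain of the CD8 co-receptor. The log2 difference was -3.39, -3.52 and -2.54 with irinotecan and -2.58, -4.08 and -3.31 in controls, and the group means differed by 0.17 (exact permutation p = 0.9). This became -0.13 without irinotecan replicate 3 and -0.21 without control replicate 2. Relative to Cd4, which regulatory and helper T cells share, Foxp3 lay at -0.15, -0.29 and -0.56 with irinotecan and -0.19, -0.85 and -1.27 in controls, a difference of 0.44 (exact permutation p = 0.3). The groups overlapped in both. The Benjamini-Hochberg adjusted p was 0.9 for each of the 10 relative values, and the smallest p that 3 against 3 libraries allow is 0.1, so this test could not reach 0.05.

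**Figure D3:**
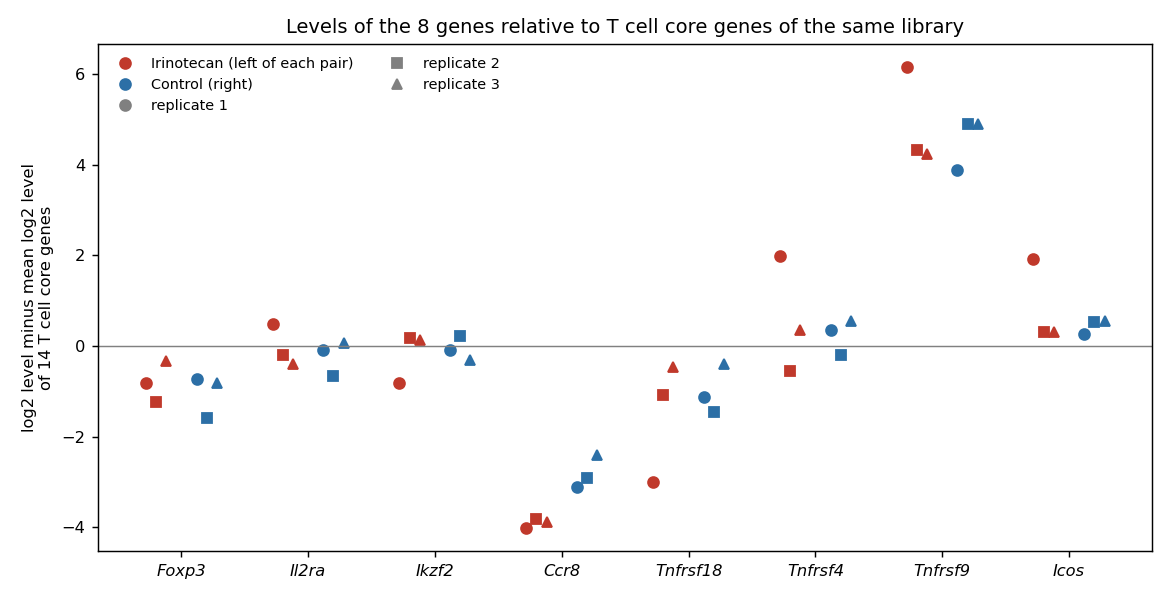
Log2 value of each gene minus the mean log2 value of 14 core T cell genes in the same library (y axis), for the 3 irinotecan libraries (red, left of each pair) and the 3 control libraries (blue, right). Irinotecan replicate 1 (red circle) is the highest of 6 for Il2ra, Tnfrsf4, Tnfrsf9 and Icos and the lowest for Ikzf2, Ccr8 and Tnfrsf18, and heights are to be compared within a gene, since gene length is not accounted for.

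The ligands and partner chains of these receptors were read next. Of 9 such genes, 5 passed the filter, of which 2 had a positive log2 fold change, or 4 without irinotecan replicate 1, and 0 were called by limma. Their median was -0.25, or 0.22 without that library. Tnfsf9, the ligand of 4-1BB, had 47.2, 212 and 195 normalized counts with irinotecan and 234, 234 and 231 in controls. All 3 irinotecan tumours lay below the controls, as for 7.89% of all genes tested, and the log2 fold change of -0.89 (SE 0.509, adjusted p = 0.743, limma) was -0.20 without irinotecan replicate 1. The summed level of 8 macrophage markers, cells that can carry this ligand, was 5664 to 12342 normalized counts with irinotecan and 12500 to 15327 in controls, and its part in the value for Tnfsf9 was not tested.

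Icosl, the ligand of ICOS, had 46.2, 106 and 108 normalized counts with irinotecan and 108, 93.1 and 90.1 in controls, with irinotecan replicate 1 lowest and a log2 fold change of -0.25 (SE 0.350). Ccl8, which in mice is a ligand of CCR8, had 205, 974.7 and 1083 with irinotecan and 1068, 786 and 653 in controls, a log2 fold change of -0.44 (SE 0.568). Without irinotecan replicate 1 the log2 fold changes of these ligands were 0.14 for Icosl and 0.33 for Ccl8. Ccl1, the other CCR8 ligand, had 2, 2 and 3 reads with irinotecan and 0, 2 and 0 reads in controls. For Tnfsf4, the OX40 ligand, 6, 11 and 2 reads with irinotecan stood against 4, 1 and 4 reads in controls, and for Tnfsf18, the GITR ligand, 0, 4 and 3 reads against 3, 5 and 6 reads. Il2 had 4, 0 and 1 reads with irinotecan and 0 reads in each control. These 4 ligand genes were too rare to compare.

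The signalling chains of the interleukin-2 receptor were more abundant. Il2rb had 258, 602 and 323 normalized counts with irinotecan and 323, 364 and 218 in controls, a log2 fold change of 0.32 (SE 0.328), or 0.58 without irinotecan replicate 1. Il2rg had 296, 440 and 468 with irinotecan and 431, 367 and 371 in controls, a log2 fold change of 0.018 (SE 0.205), or 0.22 without irinotecan replicate 1. Both groups overlapped for each chain.

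**Figure D4:**
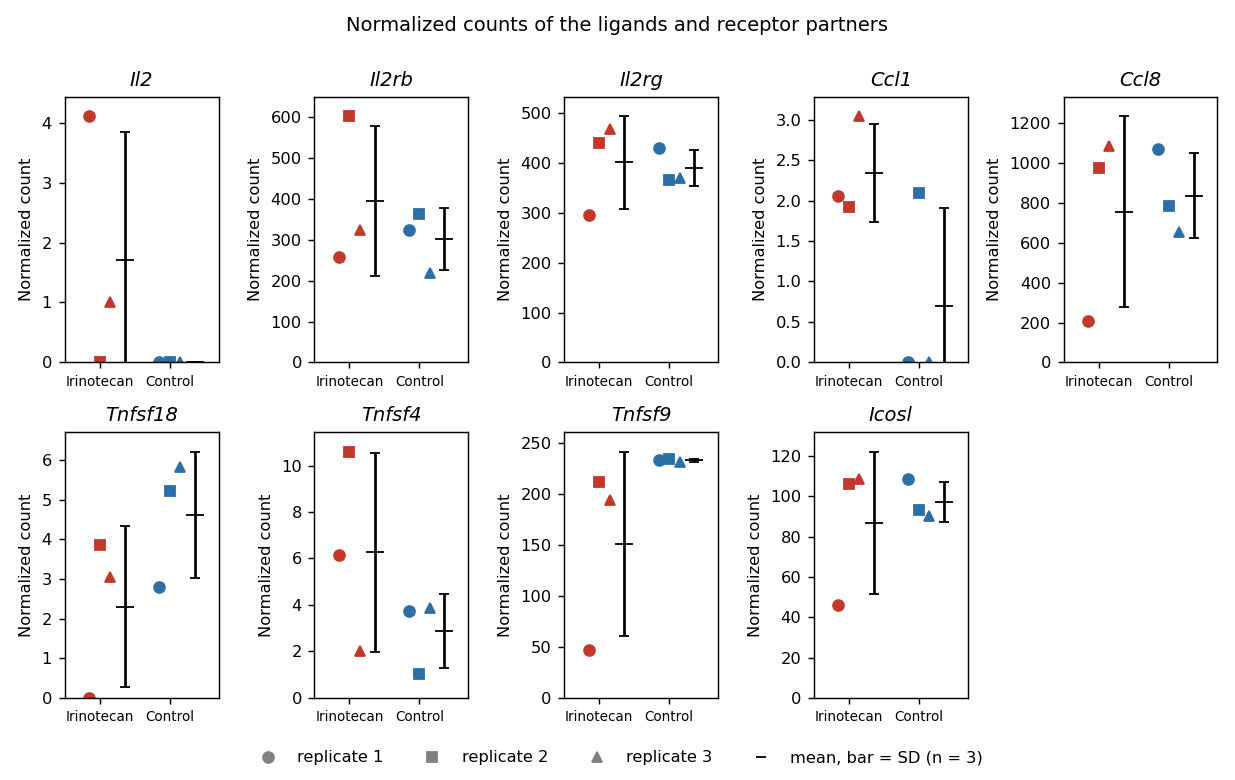
Normalized counts (y axis, from 0) of 9 ligands and receptor partners in the 3 irinotecan libraries (red) and the 3 control libraries (blue), with the group mean and SD (n = 3 each, bars end at 0). Il2, Ccl1, Tnfsf4 and Tnfsf18 lie near the limit of detection, and for Il2rg, Tnfsf9, Ccl8 and Icosl irinotecan replicate 1 (red circle) is the lowest of 6.

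Of 23 genes that act downstream, in JAK-STAT5, TRAF, NF-kB and PI3K signalling, 11 had log2 fold changes above 0, the median was -0.0075, and 0 were called by limma. Leaving out irinotecan replicate 1, 13 were above 0 and the median was 0.051. The smallest unadjusted p upward were those of Pik3r1, a regulatory subunit of PI3-kinase, at 0.47 (SE 0.186), and of the ubiquitin ligase Birc2 at 0.40 (SE 0.189). Downward they were those of the cytokine signalling inhibitor Socs3, at -0.60 (SE 0.277), and of Stat5a, which transmits the interleukin-2 signal, at -0.44 (SE 0.208). All 3 irinotecan libraries lay below the controls for 4 of the 23 genes, against 7.89% of all genes tested, and above them for 0, against 6.68%.

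Among 19 tested of 23 listed genes present in the deposited data that regulatory T cells often express, 5 had log2 fold changes above 0. The median was -0.23, and 0 were called by limma. With irinotecan replicate 1 left out, 8 were above 0 and the median was -0.099. Klrg1, an inhibitory lectin-like receptor of effector T cells, natural killer cells and some regulatory T cells, had 28.7, 25.0 and 18.2 normalized counts with irinotecan and 6.54, 5.23 and 1.94 in controls. All irinotecan tumours lay above all controls, as for 6.68% of all genes tested. The log2 fold change was 2.25 (SE 0.561, limma unadjusted p = 0.00356, adjusted p = 0.743), and 2.12 (SE 0.625) without irinotecan replicate 1. In the authors' deposited table its log2 fold change is 2.39 with an adjusted p of 0.197. Nrp1, which encodes neuropilin-1, gave 0.33 (SE 0.194) on the log2 scale, the interleukin-33 receptor gene Il1rl1 gave -0.32 (SE 0.171) and Nt5e, the ectonucleotidase CD73, gave -0.40 (SE 0.253). Mean normalized counts with irinotecan and in controls were 2142 and 2653 for Il1rl1, 632 and 502 for Nrp1 and 178 and 228 for Nt5e. For Foxp3 they were 15.6 and 12.9. Which cells expressed the genes of this list was not tested, so its median is not a measure of regulatory T cells alone.

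Of 8 other costimulatory receptors of lymphocytes, 5 passed the filter, 3 of them above 0 on the log2 scale, with a median of 0.13. All 5 were above 0 without irinotecan replicate 1, with a median of 0.61. Cd28, the main costimulatory receptor of T cells, had 52.4, 47.2 and 43.6 normalized counts with irinotecan and 30.9, 41.8 and 33.9 in controls, with a log2 fold change of 0.42 (SE 0.290). Its irinotecan libraries all lay above the controls, as for 6.68% of all genes tested. On the log2 scale Tnfrsf14 gave 0.13 (SE 0.259), Cd27 -0.059 (SE 0.696), and Tnfrsf25, which had 0 reads in irinotecan replicate 1, -0.81 (SE 1.11). Without that library Cd27 gave 0.69 and Tnfrsf25 0.61. None was called by limma.

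Other cell types that can hold these receptors were read from their markers. Of the 14 core T cell genes 7 had log2 fold changes above 0 and the median was -0.001, led by Trbc1 at 0.94 (SE 0.289) and Cd3g at 0.67 (SE 0.361) upward and by Cd6 at -0.79 (SE 0.446) and Cd5 at -1.26 (SE 1.04) downward. Their summed level was 350 to 674 normalized counts with irinotecan and 323 to 519 in controls, and Cd5 was at 0 in irinotecan replicate 1. Without that library 13 of the 14 were above 0, with a median of 0.29, Cd6 at -0.45 and Cd5 at 0.0026. Of 10 tested helper and cytotoxic lineage genes 5 were positive, with a median of 0.0089; Tox had 0.97 (SE 0.533) and Lef1 0.37 (SE 0.299), against -1.52 (SE 1.44) for Cd8b1, at 0 in irinotecan replicate 1, and -0.22 (SE 0.514) for Cd4. Without that library 9 of the 10 were positive, with a median of 0.26, Cd8b1 at 0.50 and Cd4 at 0.25. Of 6 tested natural killer markers 5 were positive, with a median of 0.35, among them Prf1 at 0.63 (SE 0.441) and Ncr1 at 0.43 (SE 0.396), while Klre1 had -0.048 (SE 0.630). Without irinotecan replicate 1, 5 of the 6 were positive, with a median of 0.38, Klre1 at 0.23 and Il18rap at -0.19. Their summed level was 3635 to 6714 with irinotecan and 3943 to 4757 in controls, most of it from Il18rap (3181 to 6150 and 3445 to 4291).

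B cell markers were rare, summing to 33.4 to 47.2 normalized counts with irinotecan and 32.0 to 50.5 in controls, with Ms4a1 and Blk among those at 0 in at least 1 library, Cr2 at 0.97 (SE 0.493) and Cd79a at -0.99 (SE 0.619) on the log2 scale. The median of the 2 tested B cell markers was -0.013, or 0.10 without irinotecan replicate 1. Of 7 tested mature dendritic cell markers 2 were positive, with a median of -0.13; Fscn1 had -0.59 (SE 0.195), Relb -0.13 (SE 0.131), Cd80 0.22 (SE 0.183) and Ccr7 0.16 (SE 0.392). Their summed level was 2681 to 3715 normalized counts with irinotecan and 4024 to 4449 in controls, mostly from Fscn1. Without irinotecan replicate 1, 3 of the 7 were positive, with a median of -0.017, and without control replicate 1 the median was -0.44. Of 7 tested mast cell markers 1 was positive, with a median of -0.55 and a summed level of 427 to 651 with irinotecan and 562 to 1123 in controls; Mcpt4 had 0.28 (SE 0.418), Kit -0.50 (SE 0.280) and Cpa3 -0.55 (SE 0.326). The median was -0.068 without irinotecan replicate 1 and -0.14 without control replicate 1.

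Macrophage markers were positive for 0 of 8, with a median log2 fold change of -0.55, led by Mrc1 at -0.74 (SE 0.180) and Adgre1 at -0.41 (SE 0.163). Without irinotecan replicate 1, 2 of 8 were positive, C1qa at 0.26 and Fcgr1 at 0.25, and the median was -0.12. Of 7 endothelial markers 1 was positive, Tek at 0.19 (SE 0.294), with a median of -0.62 and a summed level of 1445 to 1924 with irinotecan and 2227 to 2559 in controls; Cdh5 had -0.67 (SE 0.174) and Pecam1 -0.55 (SE 0.149), and the median without irinotecan replicate 1 was -0.46. Of 6 lymph node stroma markers 2 were found by symbol, Cxcl13 at -1.86 (SE 0.522) and Lyve1 at -1.22 (SE 0.458). Ccl21a, Ccl19, Madcam1 and Glycam1 were not found. The median of the 2 was -1.54, or -1.38 without irinotecan replicate 1. Their summed level was 47.2 to 170 with irinotecan and 183 to 228 in controls. Mean normalized counts of Cxcl13 were 5.71 with irinotecan and 24.1 in controls. These 2 genes cannot show whether lymph node stroma was present. None of these markers was called by limma, and their part in the values of the 8 genes was not tested.

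The genes nearest in pattern were taken by the root mean square difference of log2 values over the 6 libraries. Each gene's mean over the 6 libraries was first subtracted from its values. For Foxp3 the nearest were the antisense gene 2210411M09Rik (0.122), the myosin chaperone gene Unc45b (0.128), the pseudogene Rpl21-ps10 (0.154), BC037039 (0.161) and Gpr18, a lymphocyte G protein-coupled receptor (0.171). Over all 14632 other genes the median difference from Foxp3 was 0.568, and 14 genes lay at 0.2 or less. For the mean of the 7 tested genes the nearest were Dedd2 (0.0535), Zfp61 (0.0571), Ms4a4b, which T cells express (0.0606), the proteasome activator gene Psme1 (0.0643) and Clca3a1 (0.0656), against a median of 0.376, and 1044 genes lay at 0.2 or less. That mean was lowest in irinotecan replicate 1, at -0.39, and highest in irinotecan replicate 2, at 0.36 on the log2 scale, with the 3 controls between them.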

How the data were processed

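Bulk RNA sequencing of 3 irinotecan-treated and 3 solvent-treated CT26 tumour samples was used. The submitters' processing notes name DESeq2 1.20.0, the counter featureCounts 1.5.0-p3, the aligner HISAT2 2.0.5 and also fastp and CASAVA, and build GRCm38 (mm10); the sources used here do not give settings or the annotation release. The deposited library values are a normalized signal. Dividing each library by its lowest value above 0 gave whole numbers for 100% of genes (tolerance 1e-06), which were used as reads. Per the file headers, the authors' log2 fold changes, p-values and group means of the signal stand in the same table. Intervals from reads cover counting error only, since reads copied by PCR need not be independent molecules.

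The members and gene lists were chosen with earlier results of these data known. The test was limma 3.58.1 (R 4.3.3) (empirical Bayes, variance trended on the mean) applied to log2(normalized count + 1) of the 14639 genes with a mean of at least 10, with group as the only term, Benjamini-Hochberg adjustment over all of them and a threshold of 0.05. On this scale the pseudocount shrinks differences of low genes, while a single library near 0 weighs more than in a ratio of means. Intervals are 95% limma intervals or exact Poisson intervals. Relative values were tested by exact permutation (SciPy 1.17.1). The limma step was also run on simulated counts with changes set in some genes. Those counts held no library made to stand apart from the rest, so that run does not bear on the effect of such a library. GC content is the median over GENCODE M21 transcripts and was known for 99.86% of genes. Alternatives were quantile and TMM scaling, other pseudocounts (0.5 and 10) and filters (none and 50), the replicate number as a block, GC and length trend removal, library weights, edgeR 4.0.16, DESeq2 1.42.0 and limma-voom on the recovered reads, and each library left out. Named genes are the 8 members, their ligands and partners, up to 2 genes per list and direction with the smallest unadjusted p, Cd3e, Cd4 and Cd8a, and the 5 genes nearest in pattern. Krt20, Krt8, Krt18, Epcam, Vim, Ptprc, Il18rap, C1qa, Fcgr1 and genes overlapping a member were added after values were seen.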

Additional observations from a re-analysis of the deposited data

How the results depend on the processing

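Over all genes limma called 0, against 52 with estimated library weights, 52 with DESeq2 on the recovered reads and 0 to 2 with each library left out, while 0 of the members tested were called under each alternative run. These were 7 members, except 8 with no filter on low values, 1 (Tnfrsf9) with the filter at 50 and, with DESeq2, the 5 that had an adjusted p. The log2 fold change of Ikzf2 turned to 0.022 with quantile normalization, 0.46 with library weights, 0.076 with edgeR and 0.074 with DESeq2. For Tnfrsf18 it turned to 0.018 with quantile normalization, 0.40 with library weights, 0.026 with edgeR and 0.0245 with DESeq2, and for Tnfrsf4 to -0.049 with library weights. With Cd3e as the denominator the relative values turned to -0.074 for Foxp3 and -0.14 for Il2ra. The causes were not tested.

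With each library left out in turn, the log2 fold changes ranged from -0.079 to 0.59 for Foxp3, -0.071 to 0.35 for Il2ra, -0.62 to 0.55 for Ikzf2, -1.15 to 0.55 for Tnfrsf18, -0.0058 to 0.59 for Tnfrsf4, 0.061 to 0.58 for Tnfrsf9 and 0.20 to 0.57 for Icos. Values relative to the T cell core ranged from -0.020 to 0.47 for Foxp3, -0.074 to 0.37 for Il2ra, -0.28 to 0.21 for Ikzf2, -1.05 to 0.21 for Tnfrsf18, -0.34 to 0.93 for Tnfrsf4, -0.27 to 0.69 for Tnfrsf9, -0.13 to 0.67 for Icos and -1.24 to -0.88 for Ccr8. Foxp3 relative to Cd8a ranged from -0.21 to 0.54 and relative to Cd4 from 0.19 to 0.73.

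The labels do not say whether the replicate numbers pair the samples. Deviations of same-numbered libraries correlated at -0.114, -0.0087 and -0.213, and those of differently numbered ones at -0.050 to 0.158. With so few libraries these values cannot decide whether samples were paired. With the replicate block limma called 0 genes, and 621 had an unadjusted p under 0.05 against 844 without it. The mean relative values, such as 0.25 for Foxp3, cannot change with the block, because both groups hold the same replicate numbers. Ccr8 had 3 reads or fewer in each library, so read depth limits its values, which relative to the T cell core were -1.43 with a pseudocount of 0.5 and -0.29 with a pseudocount of 10.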
